A study of Homo sapiens with 4 samples.

Results

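The regions described here are the RNA peaks of N4-acetylcytidine (ac4C) that lie on human chromosome 19 in FaDu cells, a line from a squamous cell carcinoma of the hypopharynx. They were chosen by position alone, as every row on chromosome 19 in 3 deposited tables, and came to 1649 of 15627 rows. The list of control cells held 659 of 6403 peaks in 494 genes, the list of NAT10 knockdown cells held 673 of 6417 peaks in 498 genes, and the table of differential peaks held 317 of 2807 rows in 276 genes. The controls carried a control shRNA (shNC) and the knockdown cells an shRNA against NAT10 (shNAT10), both in the same line. In acRIP-seq, fragmented RNA is pulled down with an antibody to ac4C (IP) and compared with the same RNA set aside beforehand (input). Both conditions were measured once, with an IP and an input library each (4 libraries), and without replicates the conditions could not be tested against each other. The tables hold peaks and not reads, so the depth of the libraries is unknown, and they hold no RNA levels, of NAT10 or of marker genes, so neither the knockdown nor the identity of the line was checked here. Positions are GRCh38 and counted from 1.

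N4-acetylcytidine is a modified cytidine with an acetyl group on its base, and NAT10 is the enzyme that places it on ribosomal RNA, transfer RNA and messenger RNA. On messenger RNA it has been linked to RNA stability and to translation. Chromosome 19 has the densest packing of genes of the human chromosomes and a base composition rich in G and C. It carries housekeeping genes, many genes of ribosomal proteins, and long tandem clusters of C2H2 zinc-finger genes, most of which encode KRAB zinc-finger repressors.

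For each differential row the deposited table gives where a motif, CNNCNNCNNCNN, occurs, in which 4 cytidines stand 3 bases apart and N is any base. No genome sequence was used, so bases could be read only where a RefSeq promoter window (GRCh38.p14) happened to hold a listed site. On chromosome 19, 4 sites in 3 genes could be read with their flanking bases and held the motif. A readable site that did not hold it would have been left out. They are shown because they are what the motif results below count, 30 bases each on the strand of the RNA, with the 4 fixed cytidines in capitals. Over all chromosomes but 8, 31 of the 33 listed sites that a window held had the motif. The offset from the listed position to the first base was set separately for each strand. How it was chosen is not described here, so these counts are not taken as a check of the listed positions.

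RPS28, first site: cacgtgactCctCtcCgcCagaccgccgcc

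RPS28, second site: tccgccagaCcgCcgCcgCgccgccatcat

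STRN4: ttcatggcgCcgCccCacCcgcattatcac

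BST2: tctggatggCatCtaCttCgtatgactatt

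RPS28 encodes a protein of the small ribosomal subunit, and its sites lay at chr19:8321499-8321510 and chr19:8321512-8321523 on the plus strand, near the first base of a peak that both lists held. That peak had a fold enrichment of IP over input of 19.3 in shNC and 17.1 in shNAT10. STRN4 encodes a striatin, a scaffold of a phosphatase complex, and its site lay at chr19:46719699-46719710 on the minus strand in a 3′-UTR row. The STRN4 peak stood at 40.7 in shNC and 7.97 in shNAT10. BST2 encodes tetherin, an antiviral membrane protein, and its site lay at chr19:17405560-17405571 on the minus strand in a CDS row. Over that site shNAT10 had a peak at 4.68 and shNC had none, while another BST2 peak stood at 18.2 in shNC and 17.2 in shNAT10. C made up 16 of the 30 bases at each RPS28 site, 14 at the STRN4 site and 6 at the BST2 site.

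A peak of FXYD3 held a mature microRNA of the RefSeq table, hsa-miR-6887-3p, which is printed with its seed (bases 2 to 8) in capitals.

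hsa-miR-6887-3p: uCCCCUCCacuuuccuccuag

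It lay at chr19:35122744-35122764 on the plus strand, in a peak that only shNC had, with a fold enrichment of 8.95. The peak spans exonic sequence of the host gene, so the tables do not tell the microRNA or its precursor from the host RNA.

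Chromosome 19 held more peaks than any other autosome in both lists, 10.6% of the autosomal peaks in shNC (95% Wilson interval 9.87 to 11.4) and 10.8% in shNAT10 (10.1 to 11.6). It carries 7.59% of the autosomal protein-coding genes in the RefSeq table. Per 100 protein-coding genes it held 45.4 peaks in shNC against 31.4 on the other 21 autosomes, a ratio of 1.45 (95% interval 1.33 to 1.57). In shNAT10 the values were 46.4 and 31.3, a ratio of 1.48 (1.37 to 1.6). These intervals, and all others below, reflect how many peaks were counted and say nothing of the spread between cultures or libraries.

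**Figure D1:**
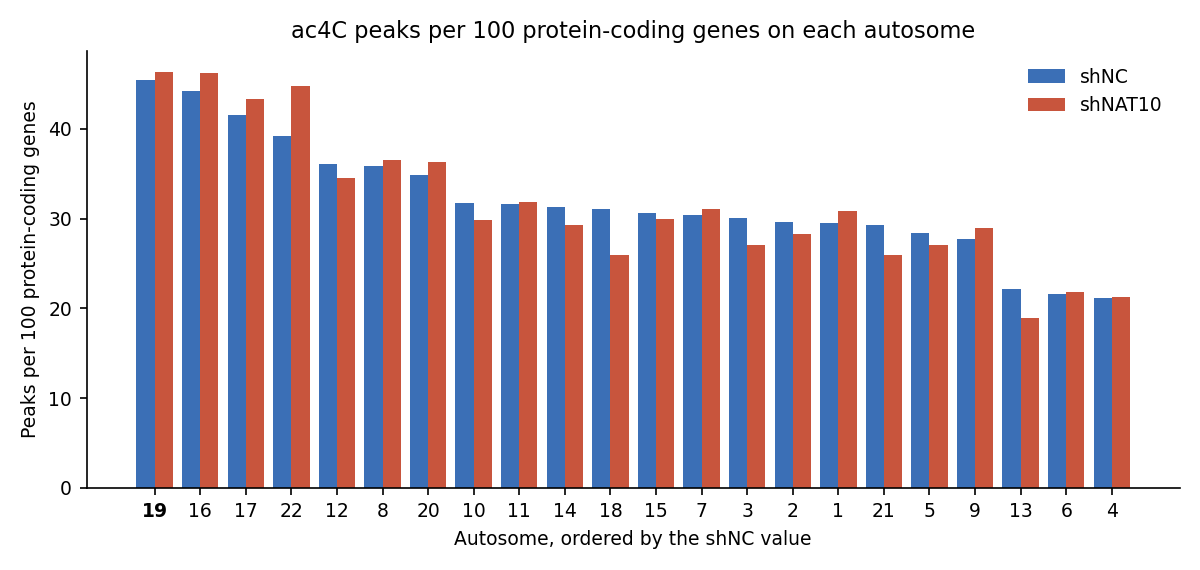
Peaks per 100 protein-coding genes (vertical axis) on each of the 22 autosomes, ordered by the shNC value, with 1 bar for the shNC list and 1 for the shNAT10 list. Chromosome 19 stands first at 45.4 and 46.4, next to chromosome 16 at 44.3 and 46.3.

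Chromosome 16 came close in both lists, with 44.3 peaks per 100 genes in shNC and 46.3 in shNAT10. Counted as genes with a peak, chromosome 19 was no longer first. It had 34.0 such genes per 100 protein-coding genes in shNC and 34.3 in shNAT10, places 2 and 3 of 22. Chromosome 16 led with 35.2 and 36.3. These counts, like those of peaks, include genes that are not protein-coding. By name, 419 of the 1451 protein-coding genes of chromosome 19 had a peak in shNC and 433 in shNAT10. Against chromosomes 17 and 22, which are also gene-dense, the ratio of peaks per gene was 1.11 (0.996 to 1.24) in shNC and 1.06 (0.955 to 1.18) in shNAT10, and both intervals held 1. Most genes of chromosome 19 with a peak had only 1, 370 of 494 in shNC and 357 of 498 in shNAT10, and no gene had more than 5 in a list.

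Genes of the basic machinery of the cell carried peaks far more often than the zinc-finger genes that fill the clusters of this chromosome. Of its 1451 protein-coding genes, 529 (36.5%) had a peak in at least 1 list, against 29.2% of 17675 genes on the other autosomes. The peaks were named by the gene symbol of the differential table or, failing that, by the only protein-coding gene whose span held them, which left 43 shNC and 40 shNAT10 peaks without a name. A gene without a peak cannot be told apart here from a gene without RNA in FaDu cells. The gene lists that follow were sets of symbols, and the counts are descriptions.

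All 12 genes of cytosolic ribosomal proteins had a peak in both lists, with 28 shNC and 32 shNAT10 peaks. Each of the 28 shNC peaks overlapped a shNAT10 peak, and 28 of the 32 shNAT10 peaks overlapped a shNC peak. On the other autosomes 61 of 64 ribosomal protein genes had a peak. RPL13A, a protein of the large subunit, had 5 peaks in each list, the most of any gene on the chromosome. Its peak with the highest enrichment, chr19:49491978-49492278, stood at 55.6 in shNC and 61.6 in shNAT10. RPS15, a protein of the small subunit, had 1 peak with the same ends in both lists, at 14.4 and 11.6. RPS19, the gene often mutated in Diamond-Blackfan anaemia, stood at 32.6 and 43.1 in a peak that joined 4 exonic blocks.

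Of 25 ribosomal pairs that overlapped 1 to 1, 2 were lower by 2-fold or more in shNAT10, relative to the median pair of all autosomes, and 5 were higher, where 23.7% of all 2667 autosomal pairs were lower and 23.1% higher. RPS9 held both ends of this range, with 1 peak at 83.3 in shNC and 19.7 in shNAT10 and another at 2.39 and 10.8. Peaks of 1 gene thus lay on both sides of the median. The median ribosomal pair differed by -0.09 on the log2 scale from the median of all autosomal pairs.

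All 3 genes of translation factors on the list had a peak in both conditions. EEF2, the elongation factor that moves the ribosome along the RNA, stood at 6.86 in shNC and 5.66 in shNAT10. EIF3K, a subunit of initiation factor 3, had a peak at 7.27 and 22.5 and another at 11.6 and 2.29. The first had 210 nt in shNC and 358 nt in shNAT10, and the second 387 nt and 179 nt. In both EIF3K peaks the deposited peak p-value was larger in shNAT10, so in the first it went against the enrichment. EIF3G, another subunit, stood at 9.45 and 76.9.

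Of 21 mitochondrial genes, 18 had a peak, a share of 85.7% against 78.7% elsewhere (difference 7.06 percentage points, -13.99 to 18.5). COX6B1, a subunit of cytochrome c oxidase, had a peak of 4 blocks with the same ends in both lists, at 27.0 and 16.9. NDUFA13, a subunit of complex I, had 4 peaks in each list, and the last of them stood at 36.3 and 35.7. Another NDUFA13 peak stood at 90.5 in shNC and 7.44 in shNAT10, but it was no 1 to 1 pair. Peaks of a second gene identifier, ENSG00000258674, covered the same place at 30.4 in shNC and 27.8 in shNAT10, so the difference there depends on which identifier is read. NDUFB7 of the same complex stood at 13.8 and 19.4. TOMM40, the import channel of the outer membrane, had 3 shNC peaks and 1 shNAT10 peak, and the pair they had in common stood at 25.1 and 32.1. Of 12 pairs of the listed mitochondrial genes, 4 were lower by 2-fold or more in shNAT10, where 23.7% of all autosomal pairs were, and none was higher, where 23.1% were. The list does not hold every mitochondrial gene: C19orf70, a protein of mitochondrial cristae that it leaves out, was among the largest rises, at 10.1 in shNC and 74.9 in shNAT10.

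RNA-processing genes had a peak in 18 of 20 cases, 90.0% against 64.7% elsewhere (difference 25.3 points, 3.83 to 36.3). HNRNPM, a splicing regulator, stood at 54.8 in shNC and 40.6 in shNAT10. LSM4 and LSM7, which belong to the rings that bind U6 RNA and decapping substrates, stood at 40.1 and 23.9, and at 10.0 and 5.62. SNRPD2, a core protein of the spliceosome, stood at 21 and 32.6. Genes of the proteasome and of ubiquitin had a peak in 9 of 11 cases, 81.8% against 46.8% elsewhere (difference 35.0 points, 4.88 to 49.3). UBE2S, the ubiquitin-conjugating enzyme that works with the anaphase-promoting complex, stood at 48.3 and 8.61. PSMC4, an ATPase of the proteasome, stood at 49.6 and 18.1, and UBE2M, the conjugating enzyme of NEDD8, at 25.4 and 13.5. For LSM4 and PSMC4 the deposited peak p-value was smaller in shNAT10 although the enrichment was lower. For HNRNPM, LSM7, UBE2S and UBE2M it was larger in shNAT10.

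**Figure D2:**
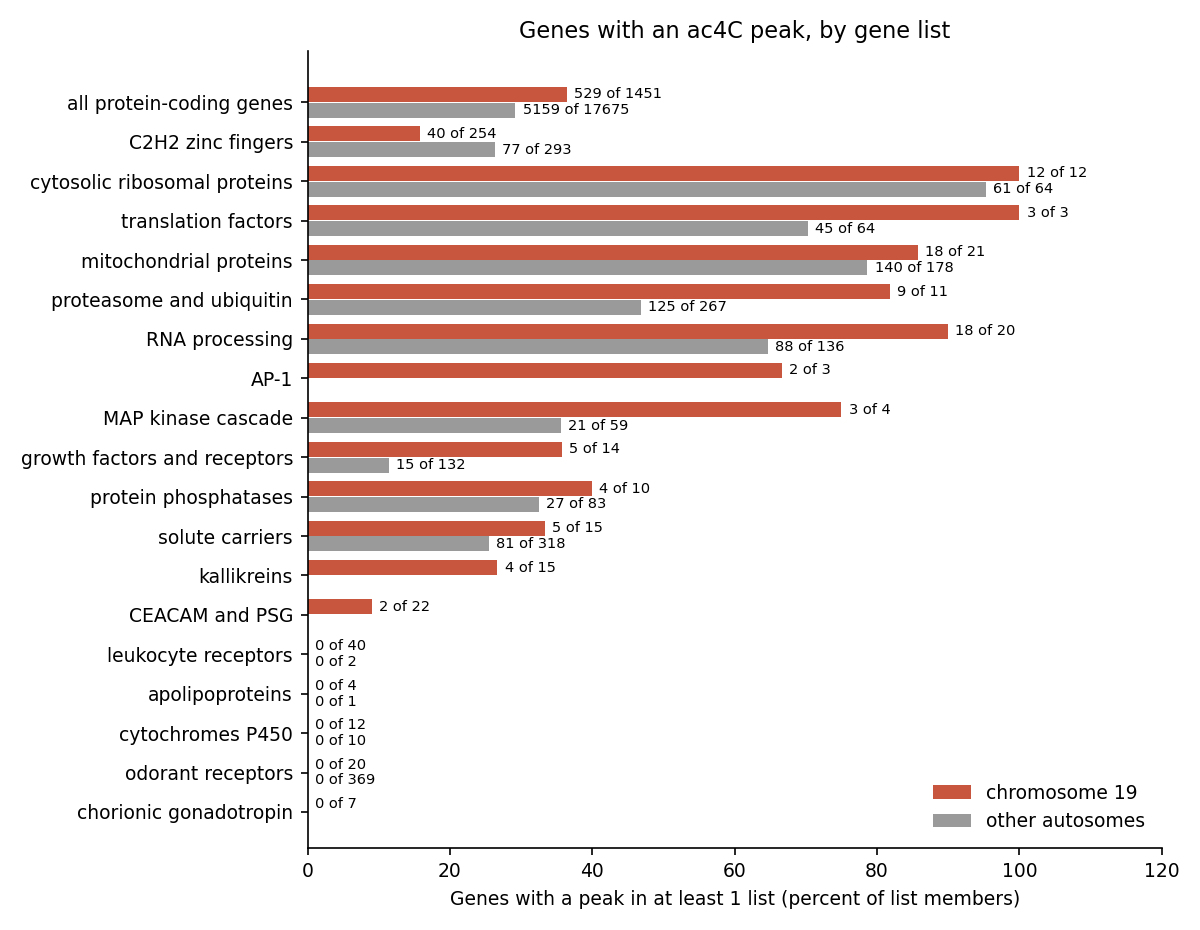
Percent of the genes of each list (horizontal axis) that had a peak in the shNC list, the shNAT10 list or both, on chromosome 19 and on the other autosomes, with the counts beside the bars. All 12 ribosomal protein genes of chromosome 19 had a peak, against 40 of 254 C2H2 zinc-finger genes, and lists without a second bar name no gene of another autosome. The list of growth factors and receptors names some genes of chromosome 19 without their relatives elsewhere.

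The C2H2 zinc-finger genes stood at the other end. Of 254 on chromosome 19, 40 had a peak (15.7%, 95% Wilson interval 11.8 to 20.7), against 77 of 293 on the other autosomes (26.3%), a difference of -10.5 percentage points (-17.2 to -3.67). Only 6 of the 40 had a peak in both lists, 16 had one in shNC alone and 18 in shNAT10 alone, where 323 of the 529 protein-coding genes of the chromosome with a peak were in both lists. Of their 25 shNC peaks 5 overlapped a shNAT10 peak, and of their 25 shNAT10 peaks 4 overlapped a shNC peak, where 58.0% of all shNC and 56.9% of all shNAT10 peaks of the chromosome did. ZNF358 stood at 16.9 in shNC and 2.68 in shNAT10, and ZNF444 at 52.5 and 20.3. The ZNF444 peaks, chr19:56160385-56160714 in shNC and chr19:56160654-56160833 in shNAT10, overlapped only in part. ZNF574 had its peak of smallest p only in shNC, at 14.2, and ZNF865 had only a shNC peak, at 8.52. Near-identical copies in these clusters can share reads, so a count for 1 zinc-finger gene is uncertain. Without zinc-finger genes in the peaks and in the gene counts, the ratio of peaks per gene was 1.67 in shNC and 1.72 in shNAT10, a setting chosen after seeing the data.

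Of the signalling genes, 2 of 3 AP-1 genes, 3 of 4 genes of the MAP kinase cascade and 5 of 14 growth factors and receptors had a peak, where 36.5% of all protein-coding genes of the chromosome did. On the other autosomes 35.6% of the MAP kinase genes and 11.4% of the growth factors and receptors had one. The list of growth factors and receptors names some genes of chromosome 19 singly, among them INSR and NOTCH3, without their relatives elsewhere. Its members on the other autosomes are thus of a different make-up, and the shares of this list are not a like comparison. JUND, an AP-1 transcription factor, had a 3′-UTR peak with the same ends in both lists (chr19:18279790-18280262), at 85.9 in shNC and 31.3 in shNAT10. A pair of overlapping CDS peaks of JUND, at 7.30 and 8.87, was listed in shNC alone. JUNB stood at 5.27 and 8.03, and FOSB had no listed peak. MAP2K2, the kinase MEK2 that phosphorylates ERK, had a shNC peak at 9.34 that overlapped a shNAT10 peak at 6.51. Another shNAT10 peak, of 151 nt and at 13.5, shared only 1 base with the edge of that shNC peak. MAP2K7, a kinase of the JNK branch, had 3 shNC peaks at 4.14 to 11.1 and a shNAT10 peak at 23.1, and none overlapped. MAP4K1 had peaks in different places in the lists, at 11.7 and 7.61, and the shNAT10 one had a deposited log10 FDR of 0, an FDR of 1.

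GDF15, a stress-induced cytokine, had a peak at 121 in shNC and 47.5 in shNAT10, and a CDS peak at 15.3 in shNAT10 alone. GDF1 had a peak in shNC alone, at 44.2, which overlapped a shNC peak of CERS1 with the same enrichment. CERS1 encodes a ceramide synthase and shares a transcript with GDF1, so that signal cannot be assigned to 1 of them. NOTCH3, a receptor, had shNC peaks at 5.30 and 8.98, the second with an FDR above 0.05, and a shNAT10 peak at 45.9 elsewhere in the gene. IL27RA stood at 39.4 and 38.0, and INSR, the insulin receptor, had a shNC peak at 6.22, whose deposited log10 FDR was 0, an FDR of 1. PPP2R1A, the scaffold of phosphatase 2A, had a shNC peak at 54.9 over shNAT10 peaks at 2.74 and 33.0. Of the protein phosphatases 4 of 10 and of the solute carriers 5 of 15 had a peak, 40.0% and 33.3% against 36.5% of all protein-coding genes of the chromosome and 32.5% and 25.5% of the same lists elsewhere. SLC1A5, a glutamine transporter, stood at 4.30 and 5.03.

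Kallikreins are secreted serine proteases, several of which are made by squamous epithelium. A peak was listed for 4 of the 15 genes of their cluster, 26.7% against 36.5% of all protein-coding genes of the chromosome. KLK5 stood at 40.7 in shNC and 8.52 in shNAT10, KLK10 at 37.3 and 7.18, and KLK6 at 65.5 and 34.0. The KLK10 peak had 389 nt in shNC and 180 nt in shNAT10. Of these 3 pairs 2 were lower by 2-fold or more in shNAT10, where 23.7% of all autosomal pairs were, and KLK1 had a shNC peak alone, at 9.67. Among the CEACAM and PSG genes 2 of 22 had a peak, CEACAM19 at 26.2 in shNAT10 and PSG4 at 10.4 in shNC. No peak was listed for 40 leukocyte receptors, 20 odorant receptors, 12 cytochromes P450, 7 chorionic gonadotropin genes or 4 apolipoproteins of chromosome 19, genes that are mostly used in other tissues.

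The short arm held more peaks per gene than the long arm, and the stretch made almost wholly of zinc-finger genes was nearly empty of peaks. Split at the largest gap between protein-coding genes, which is 5.08 Mb long and lies between ZNF254 and UQCRFS1, the short arm held 358 shNC and 372 shNAT10 peaks and the long arm 301 in each list. Per 100 protein-coding genes this was 55.2 and 57.4 on the short arm and 37.5 in both lists on the long arm. Zinc fingers made up 83 of 648 genes on the short arm and 171 of 803 on the long arm. In steps of 5 Mb, the stretch from 10 to 15 Mb was the richest of those with more than 100 genes, with 62.5 peaks per 100 genes in shNC and 67.1 in shNAT10. The stretch from 20 to 25 Mb held 33 genes, of which 31 were zinc fingers, and only 4 shNC and 2 shNAT10 peaks.

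The peaks of chromosome 19 spanned splice junctions more often than those elsewhere. In shNC 222 of 659 peaks joined more than 1 exonic block (33.7%), against 23.5% on the other autosomes, a difference of 10.2 percentage points (6.49 to 14.02). In shNAT10 the shares were 31.1% and 22.97%, a difference of 8.09 points (4.52 to 11.8). Chromosome 19 ranked first of the 22 autosomes in shNC and behind chromosome 21 in shNAT10. The stretch of genome under such a peak was shorter, with a median of 1003 bp against 1208 bp in shNC and 917 bp against 1289 bp in shNAT10. Against chromosomes 17 and 22 this difference was -43 bp (-438 to 202) in shNC and -133 bp (-419 to 239.8) in shNAT10, and both intervals held 0. The intervals against all other autosomes also held 0 among stronger peaks. With a fold enrichment of at least 4 they ran from -458 to 0.15 in shNC and -551 to 43.9 in shNAT10. With an FDR of at most 1e-10 they ran from -429 to 81.5 and -493 to 221. The median exonic length was 239 nt against 210 nt in shNC, a difference whose interval began at 0 (0 to 30), and 210 nt against 209 nt in shNAT10. The lengths of introns and exons of the genes were not analysed here.

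The fold enrichment of the peaks was like that elsewhere, while their p-values were smaller. The median enrichment was 12.5 against 12.4 in shNC, and 11.8 against 12.5 in shNAT10, with intervals of the log2 ratio from -0.10 to 0.17 and from -0.19 to 0.13. The median of the deposited log10 p-value was -14.7 against -9.64 in shNC and -13.3 against -9.10 in shNAT10, the lowest of the 22 autosomes in both lists. A false discovery rate (FDR) of at most 1e-10 was reached by 55.8% of the shNC peaks of chromosome 19 and 46.2% of those elsewhere, and by 52.6% and 44.7% in shNAT10. Among these stronger peaks the enrichment on chromosome 19 was lower, 19.3 against 21.3 in shNC (log2 ratio -0.14, -0.32 to 0.08) and 17.4 against 21.3 in shNAT10 (-0.29, -0.48 to -0.06). At the other end, 41 shNC and 40 shNAT10 peaks of chromosome 19 had an FDR above 0.05.

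More of the peaks of chromosome 19 were found in both conditions than of those on all other autosomes, while against chromosomes 17 and 22 the intervals held 0. A peak counted as shared when any exonic base of it (at least 1 bp) was also covered, on its own strand, by a peak of the other list. Of the 659 shNC peaks, 277 had no overlapping shNAT10 peak, where 48.5% of all autosomal shNC peaks had none, and the 382 shared peaks made 58.0% against 50.7% on the other autosomes (difference 7.22 percentage points, 3.19 to 11.2). Of the 673 shNAT10 peaks, 290 had no overlapping shNC peak, where again 48.5% of all had none, and 56.9% against 50.8% were shared (6.11 points, 2.12 to 10.0). Chromosome 19 ranked 3 of 22 in both lists, and chromosome 21 had the highest share, 60.0% of 70 and 66.1% of 62 peaks. The difference from chromosomes 17 and 22 was 1.56 points in shNC (-3.77 to 6.87) and 3.94 in shNAT10 (-1.30 to 9.16). Among peaks with an FDR of at most 1e-10 it was 4.62 points in shNC (-0.659 to 9.59) and 4.98 in shNAT10 (-0.332 to 9.91) against the other autosomes, so all 4 of these intervals held 0. By gene, 369 genes were in both lists, 74.7% of the shNC and 74.1% of the shNAT10 genes, against 63.9% and 64.1% elsewhere.

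The difference in shared peaks was largely absent among peaks of like p-value. The autosomal peaks of each list were divided by p-value into 4 groups of equal size, a step chosen after seeing the data. The group with the smallest p-values held 34.3% of the shNC peaks of chromosome 19 and 23.9% of those elsewhere, and 92.5% and 91.1% of these were shared. In the group with the largest p-values 17.2% and 18.9% were shared. With the other autosomes weighted to the groups of chromosome 19, their shared share was 57.2% against 58.0% in shNC and 56.0% against 56.9% in shNAT10. The same weighting left a difference of 7.92 points in shNC and 6.44 in shNAT10 for the junction-spanning share, while the difference in the share of peaks that overlapped a row of the differential table came to 2.85 points in shNC and 2.19 in shNAT10.

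**Figure D3:**
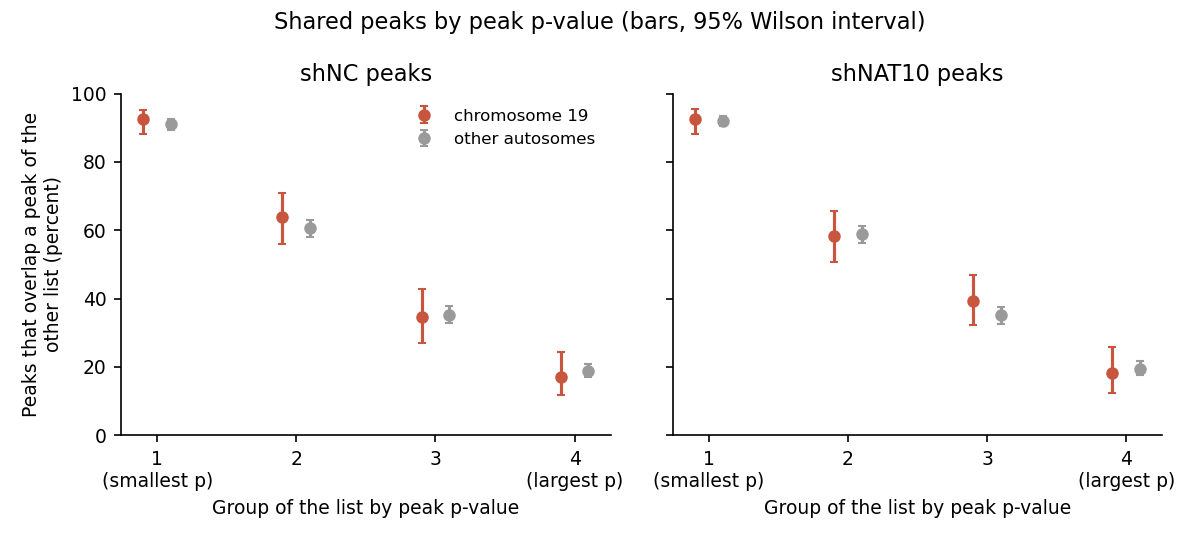
Percent of peaks that overlapped a peak of the other list (vertical axis) in each of 4 equal groups of a list by peak p-value (horizontal axis), for chromosome 19 and the other autosomes, with 95% Wilson intervals as bars. Both series fall from above 90% to below 20% and their intervals overlap in every group.

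By p-value, the leading shNC peaks with no overlapping shNAT10 peak belonged to TECR, the last enzyme of the cycle that elongates very long fatty acids, XAB2, a splicing and DNA-repair protein, FXYD3, a regulator of the sodium pump, TPM4, a tropomyosin, and CALM3, a calmodulin. Their fold enrichments were 7.65, 122, 8.95, 4.93 and 5.18, so only XAB2 (chr19:7619555-7620063) combined a very small p-value with an enrichment above 10. Among the leading shNAT10 peaks with no overlapping shNC peak were those of RBM42, an RNA-binding protein, NFKBIB, an inhibitor of NF-kappa-B, SF3A2, a splicing factor, and SAFB, a nuclear scaffold protein. They stood at 24.5, 53.0, 10.9 and 194. SAFB (chr19:5667874-5668418) had the second highest enrichment of the chromosome in shNAT10 and no shNC peak at that place.

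Rows of the differential table covered a larger share of the peaks on chromosome 19. In shNC 258 of its 659 peaks (39.2%) overlapped such a row, where 33.4% of all autosomal shNC peaks did and 32.7% of those on the other autosomes (difference 6.48 points, 2.62 to 10.5). In shNAT10 it was 241 of 673 (35.8%), where 31% of all did and 30.4% elsewhere (5.44 points, 1.70 to 9.32). Against chromosomes 17 and 22 the sign turned, to -1.27 points in shNC (-6.53 to 4.00) and -0.91 in shNAT10 (-5.97 to 4.15). Among peaks with an FDR of at most 1e-10 the difference from the other autosomes was 4.68 points in shNC (-0.78 to 10.1). In shNAT10 it was 3.25 points (-2.31 to 8.76), and both intervals held 0.

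About 1 in 2 of these rows lay in peaks that both conditions had. Of the 317 rows on chromosome 19, 84 overlapped a shNC peak alone, 72 a shNAT10 peak alone and 161 peaks of both lists. The last made 50.8% against 38.9% elsewhere (difference 11.9 points, 6.06 to 17.7), the highest share of the 22 autosomes. Against chromosomes 17 and 22 the difference was 7.48 points, and its interval held 0 (-0.0902 to 14.9). The rows with a shNC peak alone made 26.5% against 33.1%, and those with a shNAT10 peak alone 22.7% against 28.0%. Against chromosomes 17 and 22 these differences were -2.56 points (-9.29 to 4.26) and -4.92 points (-11.4 to 1.69).

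Fewer of the rows were 3′-UTR rows. The deposited region class was 3′-UTR for 151 of 317 rows (47.6%), against 57.7% on the other autosomes, a difference of -10.02 points (-15.8 to -4.18), and only chromosome 11 had a lower share, 45.7%. CDS made up 23.03% against 18.3% (4.70 points, 0.11 to 9.86), and rows classed only as exon 28.1% against 23.4% (4.68 points, -0.29 to 10.1). A further 3 rows were 5′-UTR and 1 was a stop codon. Rows with a shNC peak alone and rows with a shNAT10 peak alone had 3′-UTR shares of 47.6% (40 of 84) and 50% (36 of 72) (difference -2.38 points, -17.7 to 13.0).

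The motif was listed more often on chromosome 19 than on any other autosome. At least 1 site was listed in 251 of 317 rows (79.2%, 95% Wilson interval 74.4 to 83.3), against 58.5% on the other autosomes, a difference of 20.7 percentage points (15.5 to 25.3). It was 12.2 points (5.50 to 18.8) against chromosomes 17 and 22. Chromosome 11 came next with 74.6%, and its interval overlapped that of chromosome 19. Per 100 nt of exonic sequence 0.834 sites were listed on chromosome 19 and 0.487 elsewhere, and the next highest density was 0.675 on chromosome 22. The difference was also present within region classes, with 76.8% against 54.5% of 3′-UTR rows and 87.7% against 65.2% of CDS rows.

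Rows in peaks of both lists held the motif most often, 91.3% of 161 (85.9 to 94.7), against 65.5% of the 84 with a shNC peak alone and 68.1% of the 72 with a shNAT10 peak alone. The last 2 shares differed by -2.58 points (-16.9 to 12.2). Per 100 nt the rows of both lists held 0.889 sites, those with a shNAT10 peak alone 0.813 and those with a shNC peak alone 0.639, so per length the rows of both lists stood closer to the shNAT10 rows than the shares show. On the other autosomes the shares were 70.8%, 50.7% and 50.6%, so each was lower than its counterpart on chromosome 19. The rows with most sites lay in QTRT1, a subunit of the enzyme that puts queuine into transfer RNA, with 13 sites in 955 nt, in EPN1, an endocytic adaptor, with 13 in 660 nt, and in ISYNA1, the enzyme that makes inositol phosphate from glucose phosphate, with 12 in 807 nt. QTRT1 had a shNC peak at 27.0 over shNAT10 peaks at 6.02 and 5.07, and ISYNA1 stood at 139 in shNC and 60.2 in shNAT10.

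**Figure D4:**
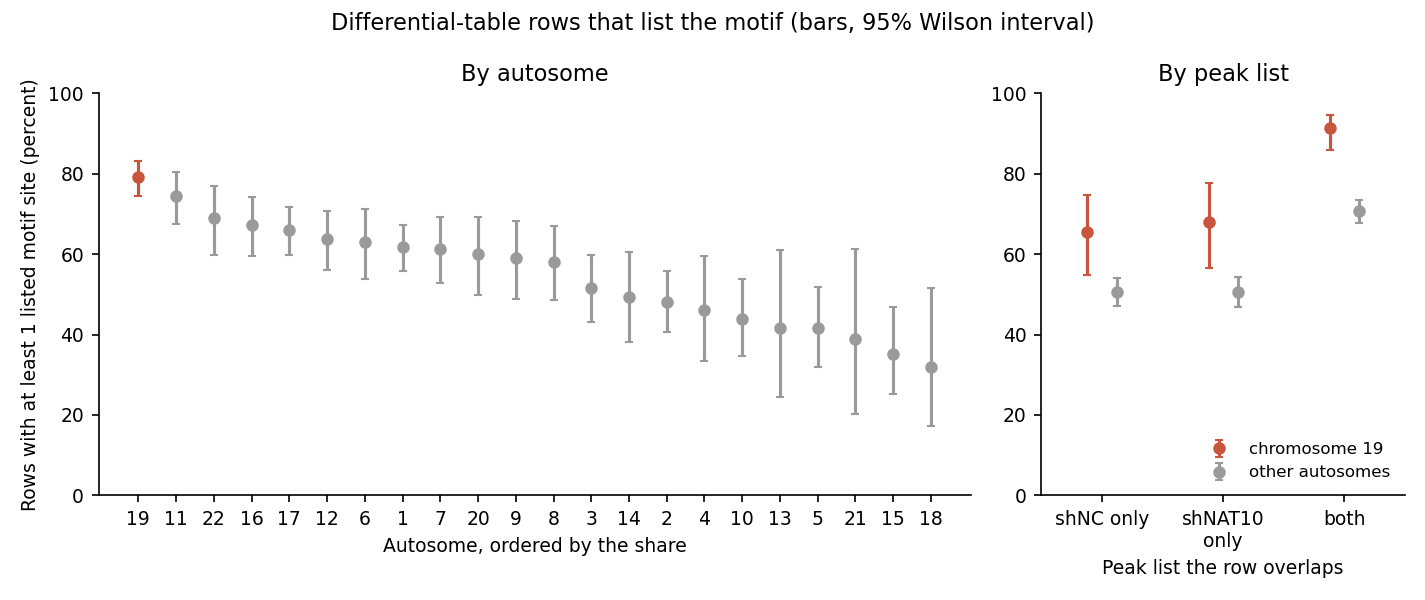
Percent of differential-table rows with at least 1 listed motif site (vertical axis), by autosome on the left and by the peak list the row overlaps on the right, with 95% Wilson intervals as bars. Chromosome 19 is highest at 79.2%, and on the right its rows stand above those of the other autosomes in all 3 classes, at 65.5%, 68.1% and 91.3%.

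The bases around gene starts on chromosome 19, most of them upstream and so not in the RNA, held the motif more often too. In the RefSeq windows of 300 bases, 83.9% of 1917 on chromosome 19 and 74.4% of 31808 on the other autosomes held it on the strand of the gene (difference 9.48 points, 7.70 to 11.1). In the small part of each window after the gene start, 29.0% (27.0 to 31.1) and 25.5% (25.1 to 26.0) held it, a smaller gap. C made up 30.8% of the bases in these windows on chromosome 19 and 28.2% elsewhere. The base composition of the peaks themselves was not analysed here, and its part in the motif share was not tested.

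Enrichment in peaks that both lists held was spread as widely on chromosome 19 as elsewhere. There were 311 pairs of peaks that overlapped 1 to 1, of 2667 on all autosomes, and each pair's ratio of shNAT10 to shNC was set against the median of all autosomal pairs. By this measure 74 pairs (23.8%) were lower by 2-fold or more in shNAT10, where 23.7% of all autosomal pairs were, and 70 (22.5%) were higher, where 23.1% of all were. The median log2 ratio was -0.15 on chromosome 19 and 0.02 elsewhere, a difference of -0.17 (-0.33 to 0.06). The interquartile range of the pairs on chromosome 19 ran from -0.96 to 0.83.

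**Figure D5:**
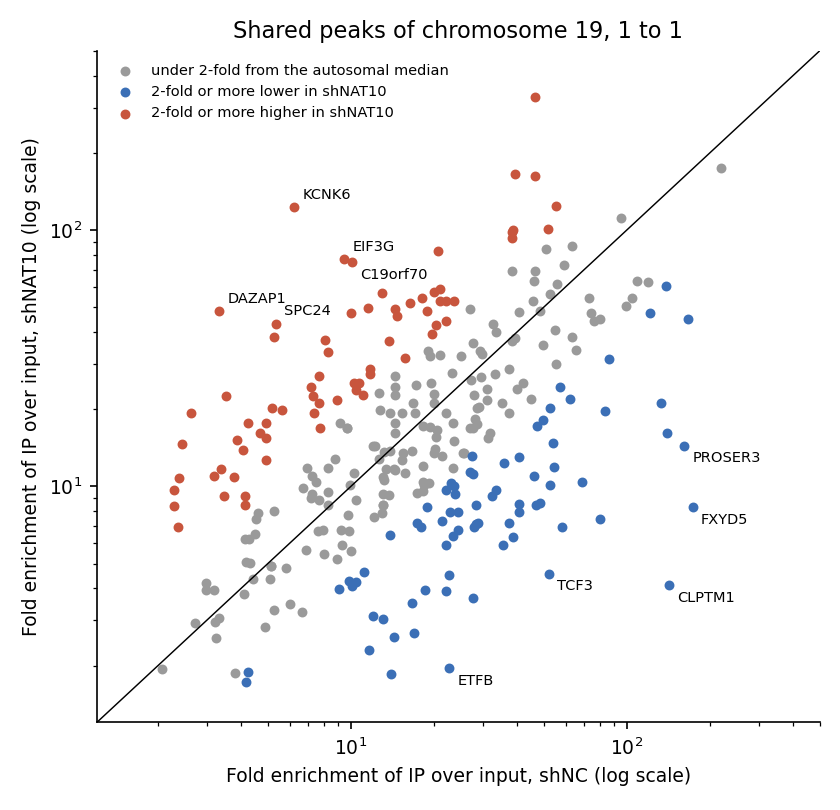
Fold enrichment of IP over input in shNC (horizontal axis) and shNAT10 (vertical axis), both on log scales, for the 311 peaks of chromosome 19 that overlapped 1 to 1, each point 1 pair, with the line of equal values. The 74 lower pairs lie below the line and the 70 higher pairs above it, and the 5 lowest and 5 highest ratios are named.

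The largest falls and rises were each more than 7-fold. CLPTM1, which encodes a transmembrane protein, had a 3′-UTR peak at 142 in shNC and 4.12 in shNAT10 (chr19:44992654-44993192), where the shNAT10 peak covered 180 of the 539 nt. FXYD5, a regulator of the sodium pump also known as dysadherin, stood at 173 and 8.28 (chr19:35166720-35169853). ETFB, which passes electrons to the respiratory chain, stood at 22.7 and 1.95, the transcription factor TCF3 at 52.1 and 4.56, and PROSER3 at 161 and 14.4. In TCF3 the shNAT10 peak had 151 nt against 420 nt in shNC, and in PROSER3 151 nt against 421 nt.

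In the other direction, KCNK6, a potassium channel, stood at 6.22 in shNC and 123 in shNAT10 (chr19:38329112-38329441). DAZAP1, an RNA-binding protein, stood at 3.33 and 48.2, SPC24, a kinetochore protein, at 5.35 and 43.1, and C19orf70 at 10.1 and 74.9. EIF3G stood at 9.45 and 76.9, and P2RY11, a receptor for extracellular ATP on the opposite strand, overlapped it in position and stood at 46.3 and 329, the highest enrichment of the chromosome. Whether strand was used in counting is not given in the sources used here, so these 2 signals cannot be told apart. The highest shNC value, 220, belonged to ENSG00000130748, whose shNAT10 peak lay within the span of TMEM160 and stood at 174. ALKBH6 followed in shNAT10 at 193, where shNC had 28.3, in peaks of 2 overlapping gene identifiers.

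Several genes carried peaks in 1 condition beside shared ones. ADGRL1, an adhesion receptor, had 5 and 3 peaks, and MYH14, a non-muscle myosin, had 4 and 4. The last MYH14 peak stood at 109 in shNC and 63.5 in shNAT10, while 2 of its peaks in each list had no partner.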

How the data were processed

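Immunoprecipitated and input RNA of shNC and shNAT10 FaDu cells was sequenced by a company for the authors, in 1 library of each kind. The submitters' processing notes name cutadapt 2.5, HISAT2 2.1.0, featureCounts 1.6.3, HOMER 4.10.4 and the builds GRCh38, hg38 and GRCm38, without roles. The peak caller and its thresholds are not given in the sources used here.

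The authors deposited, for each condition, a list of peaks with exonic blocks, a fold enrichment of IP over input (a linear ratio), a p-value, and other columns with log10 p and log10 FDR. The authors' deposited table of differential peaks adds region classes, gene symbols and motif positions. Its columns of log2 fold change, log10 p and log10 FDR between the conditions are the authors' own comparison and were not used. Tables were matched to conditions by a prefix they have in common with the sample titles.

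The members, gene lists and comparisons were chosen with earlier results of these data known. Blocks were compared on the same strand with a minimum overlap of 1 bp. Shares have 95% Wilson intervals, their differences Newcombe intervals, and medians order-statistic intervals. No test between conditions was run, because each had 1 library of a kind. Named peaks were the 5 with the highest enrichment in each list, the 5 list-only peaks with the smallest p-values in each list, the 5 pairs with the largest fall and rise, the 5 genes with most peaks, members of the 18 gene lists (all where 5 or fewer had a peak, otherwise the 4 with the smallest p-values), and JUND, JUNB, FOSB, MAP2K2, MAP2K7, GDF1 and GDF15. Results for some genes that the rule names are not reported here. Peaks of RPS9, RPS28, STRN4, BST2, QTRT1, EPN1, ISYNA1 and others outside this rule were named after their values were seen. Of 275 protein-coding rows of chromosome 19 with a name by place in RefSeq (GRCh38.p14), 266 had the symbol of the deposited table. Overlaps and intervals were tested on simulated data. Scripts ran in Python 3.11.15 with pandas 2.3.3, numpy 2.4.6 and scipy 1.17.1, and figures were drawn with matplotlib 3.10.9.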

Additional observations from a re-analysis of the deposited data

How the results depend on the processing

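Under the alternatives tried, 99 of 115 values for 22 results stayed within the 95% interval of the reported value. With chromosomes 17 and 22 as comparison, the difference in the differential-table share turned to -1.27 points in shNC and -0.91 in shNAT10, the ratio of peaks per gene was 1.11 in shNC and 1.06 in shNAT10, the difference in the shared share of shNC peaks was 1.56 points, and the difference in the motif share was 12.2 points; the cause was not tested. With an FDR of at most 1e-10, chromosome 19 held 12.5% of the peaks in either list, the ratio of peaks per gene was 1.75 in shNC and 1.74 in shNAT10, and the log2 ratio of fold enrichment was -0.14 in shNC and -0.29 in shNAT10. In settings added after seeing the data, without zinc-finger genes in peaks and gene counts, the ratio of peaks per gene was 1.67 in shNC and 1.72 in shNAT10. With the other autosomes weighted to the p-value groups of chromosome 19, the difference in the shared share was 0.76 points in shNC and 0.89 in shNAT10. Weighting them to its list membership or region classes left the motif difference at 18.3 and 19.7 points. No paired analysis was possible because neither the IP nor the input was repeated. The depth of the libraries is unknown, so differences between conditions have no error.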
